A study of Mus musculus with 96 samples.

Results

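Small RNA libraries of cardiac endothelial cells (ECs) at day 7 (D7) after myocardial infarction (MI) were compared with those at day 3 (D3). The comparison used the 4 D7 and the 4 D3 EC libraries, 8 of the 96 libraries of the series, and all mature miRNAs listed in the count tables. The other libraries came from cardiomyocytes (CMs), fibroblasts (FBs), hematopoietic cells (HCs) and from ECs at D0, D1, D14 and D28, with 4 libraries for each of the 24 groups of cell type and day. The infarct was made in male C57Bl/6J mice, 12 to 14 weeks old, by permanently tying the left anterior descending coronary artery. D0 mice were not operated on, so an operation without infarct is not part of the time course. RNA of 3 mice, or of 2 where a sample was missing, was pooled for each library, so the spread between libraries is a spread between pools. ECs were taken with magnetic beads against CD144 (VE-cadherin, the adhesion molecule of endothelial junctions) from cells that had not bound beads against CD45, the common antigen of leukocytes.

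miRNAs are short RNAs that guide Argonaute proteins to messenger RNAs, mostly through the seed, bases 2 to 8 from the 5′ end, and lower the stability or translation of their targets. miRNAs that share a seed form a family and can share targets, and hairpins that lie close together on a chromosome are often cut from one primary transcript. In the days after an infarct the heart passes from inflammation to the formation of granulation tissue and scar, and ECs form new vessels along the border of the infarct. In the imprinted Dlk1-Dio3 region of mouse chromosome 12, one of the largest groups of miRNA hairpins in the genome is transcribed from the maternal copy only.

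The sequences that carry the comparison are shown with the seed in capitals, as listed by RefSeq for GRCm38.p6. The first set is shown because its members share seeds within the miR-7 pair and within the miR-30 family, and its first 4 members fell from D3 to D7:
miR-7a-5p: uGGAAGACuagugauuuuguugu
miR-7b-5p: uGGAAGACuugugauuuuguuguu
miR-30a-5p: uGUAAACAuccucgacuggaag
miR-30e-5p: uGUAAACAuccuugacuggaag
miR-30c-5p: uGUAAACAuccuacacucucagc
The fifth, miR-30c-5p, has the miR-30 seed and was not called. Counted from the 5′ end, miR-7a-5p and miR-7b-5p differ by A10U and by 1 further base at the end of miR-7b-5p (23 and 24 bases). In the same way miR-30a-5p and miR-30e-5p differ by C13U.

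The second set rose and comes from hairpins of the Dlk1-Dio3 region; it is shown because no seed is shared within it or with any other tested miRNA in the RefSeq table:
miR-127-3p: uCGGAUCCgucugagcuuggcu
miR-541-5p: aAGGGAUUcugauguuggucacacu
miR-337-5p: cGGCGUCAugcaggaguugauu
miR-382-5p: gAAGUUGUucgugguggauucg
miR-433-3p: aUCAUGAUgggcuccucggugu
miR-409-5p: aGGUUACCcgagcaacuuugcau
Among the 421 miRNAs tested, 355 were matched to a RefSeq sequence.

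The total count on mature miRNAs ranged from 1698800 to 29037628 in the D3 libraries and from 2747532 to 10032936 in the D7 libraries. Reads without a match to a mature miRNA made up 54.5% to 58.3% of the total at D3 and 54.6% to 71.5% at D7. Of 1978 listed mature miRNAs, 1073 had a count in at least 1 of the 8 libraries and 481 in all 8. Expression is given as CPM, the count of a miRNA relative to a common total of miRNA counts per library, scaled with TMM factors that align the bulk of miRNAs between libraries. miR-126a-3p, the defining miRNA of endothelium, was the most abundant miRNA by its mean over the 8 libraries. It had a mean of 194338 ± 24896 CPM at D3 and 165813 ± 17809 CPM at D7 (SD, n = 4). On the scale of all 96 libraries its D7 mean was 164978 CPM in ECs against 31549 in CMs, 20289 in FBs and 10812 in HCs, so the label of the cells held for this marker. Markers of CMs were also present: their sum was 178278 CPM in D3 replicate 1, between 87766 and 94966 CPM in the other D3 libraries and between 30208 and 77627 CPM at D7. In D3 replicate 1 the CM marker miR-1a-3p, at 174261 CPM, exceeded miR-126a-3p, at 161897 CPM. By the distance over 270 miRNAs, the nearest neighbour of every library was of its own day. D7 replicate 1 lay almost as far from the other D7 libraries as from D3 (root mean square log2 difference of 0.54 and 0.56), and is set apart together with D3 replicate 1 in the counts that follow.

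Between D3 and D7, 28 of 421 miRNAs passed the test (edgeR quasi-likelihood test on all 24 EC libraries, Benjamini-Hochberg adjusted p under 0.05), 6.65% of those tested. 13 were higher at D7 (3.09%) and 15 were lower (3.56%). The rises were mostly miRNAs of the Dlk1-Dio3 region, and the falls included miR-7a-5p and miR-7b-5p, 3 members of the miR-30 family and both arms of miR-147. The fold change exceeded 2 in either direction (an absolute log2 value above 1) for 24 of the 28, and the 4 libraries of one day did not overlap those of the other for 25 of them, against 95 of all 421 (22.6%, with 41 higher, 9.74%, and 54 lower, 12.8%). For each of those 25 the exact two-sided permutation test of 4 libraries against 4 gave 0.0286, the smallest p that 70 arrangements allow. This p follows from the lack of overlap and adds no support to it. The 28 were chosen by the same libraries, so their larger share without overlap is no separate test. Without D3 replicate 1 the test called 30 miRNAs, 27 of them shared with the 28, and without D7 replicate 1 it called 31, with 25 shared. Without D3 replicate 4 it called 15 and without D7 replicate 3 it called 18, all of them among the 28. The study removed 1 EC library of D28 that it does not name, and all 4 were kept here. Without each of them the test called 31 to 43, with 43 and all 28 among them without D28 replicate 3.

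The balance of rises and falls depended on the scaling. TMM factors were 0.918 to 0.971 at D3 and 1.05 to 1.34 at D7, and the median log2 fold change over all tested miRNAs was −0.04. Scaled by library size alone, this median was 0.31 and 45 miRNAs were called (10.7%), 39 higher (9.26%) and 6 lower (1.43%). Of the 28, 19 were called on that scale as well. miR-30a-5p, miR-30d-5p, miR-145a-5p, miR-29c-5p, miR-451a, miR-542-3p, miR-130a-5p, miR-19a-3p and miR-350-3p were not. All log2 fold changes below are on the TMM scale, and their directions were the same on the library size scale for the 28 miRNAs. In bulk samples such as these, fewer cells of a kind and less RNA per cell cannot be told apart.

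**Figure D1:**
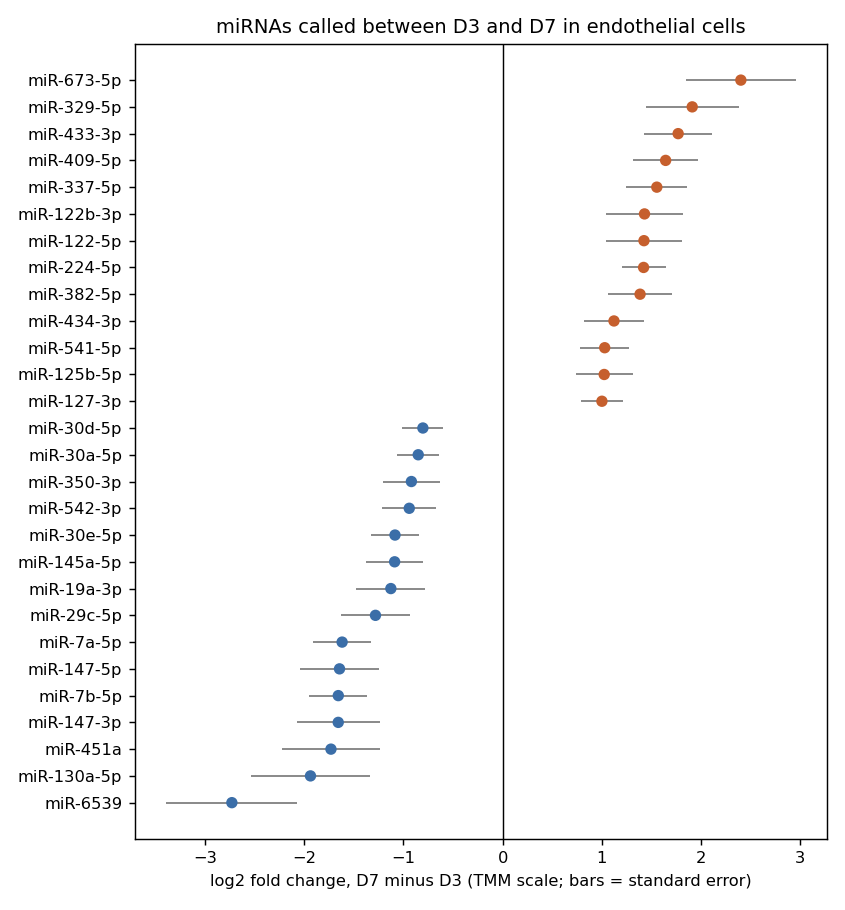
The 28 miRNAs called between D3 and D7 in ECs. Points are log2 fold changes, D7 minus D3, bars are standard errors, orange marks higher and blue lower at D7; the values run from −2.73 for miR-6539 to 2.40 for miR-673-5p.

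Most of the miRNAs called higher came from the Dlk1-Dio3 region. Of 57 mature miRNAs listed for the cluster 39 were tested, and 8 were called higher and 0 lower, with 37 of 39 above 0 and a median log2 fold change of 0.77. By RefSeq position, given for 355 of the 421 tested, 41 miRNAs came from chr12:109563692-109743795 (GRCm38, plus strand). Of these, 9 were called higher and 40 had a positive log2 fold change, with a median of 0.85. The additional call by position was miR-329-5p. In the test of the 8 D3 and D7 libraries alone, 17 members of the list were called higher and 0 lower, where 90 of all 420 miRNAs were called (21.4%), 48 higher (11.4%) and 42 lower (10%). The sum of the list was between 1563 and 2246 CPM in the D3 libraries and between 2992 and 4742 CPM in the D7 libraries, without overlap.

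miR-127-3p, which lies opposite to the Rtl1 coding gene and is known to act against its transcript, was the most abundant member that was called. Its level was 856, 844, 771 and 608 CPM in the D3 libraries and 1299, 1511, 1958 and 1397 CPM in the D7 libraries. All D7 libraries lay above all D3 libraries, with a log2 fold change of 1.00 ± 0.22 (SE, adjusted p = 0.0042, edgeR). Its hairpin lies at chr12:109592846-109592915, and those of miR-433 (chr12:109591715-109591838) and miR-434 (chr12:109594506-109594599) lie on either side of it, also opposite to Rtl1. miR-433-3p was at 17.5, 16.8, 6.18 and 7.99 CPM at D3 and at 35.2, 38.4, 55.7 and 44.6 CPM at D7. Its lowest D7 library was above its highest D3 library, and its log2 fold change was 1.77 ± 0.34 (SE, adjusted p = 0.0016, edgeR). miR-434-3p was at 20.2 to 44.8 CPM at D3 and at 56.6 to 94.3 CPM at D7, a log2 fold change of 1.12 ± 0.31.

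At the other end of the cluster, miR-541-5p was at 192, 213, 136 and 151 CPM at D3 and at 285, 349, 487 and 295 CPM at D7. These values did not overlap, and the log2 fold change was 1.03 ± 0.25 (SE, adjusted p = 0.0097, edgeR). Its hairpin (chr12:109742409-109742498) and that of miR-409 (chr12:109743158-109743236) lie in an intron of the non-coding gene Mirg, and that of miR-382 (chr12:109733771-109733846) overlaps a Mirg exon. miR-382-5p rose from 20.5 to 29 CPM at D3 to between 48.5 and 91.7 CPM at D7, and miR-409-5p from 6.18 to 12.3 CPM to between 22.1 and 40.8 CPM. Between these and the Meg3 end of the region, miR-337-5p (hairpin chr12:109585789-109585885) rose from a mean of 25.6 ± 8.37 to 76.7 ± 15.9 CPM (SD, n = 4), a log2 fold change of 1.55 ± 0.31. D7 replicate 3 was the highest library for all 9 miRNAs of the region that were called and for the sum of the list, at 4742 CPM against at most 3314 CPM in the others. Without it, the sums still did not overlap.

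miR-673-5p and miR-329-5p had the largest log2 fold changes of the region, 2.40 ± 0.56 and 1.91 ± 0.47, but few reads stood behind them. The count of miR-673-5p was 9, 27, 0 and 5 in the D3 libraries and 61, 32, 67 and 11 in the D7 libraries. An abundant member that was not called was miR-379-5p. Its hairpin is the first of the large distal group, and it was at 310 to 431 CPM at D3 and at 434 to 753 CPM at D7, a log2 fold change of 0.50 ± 0.28 (adjusted p = 0.3, edgeR). miR-154-5p was at −0.00 ± 0.27, the only member of the 41 placed by position without a positive value. In the list, which also holds members without a position, 2 of 39 were negative, the lowest at −0.47. Of the members within 10 kb of a neighbour, the 8 miRNAs from miR-337 to miR-136 held 4 calls with a median of 1.00, and the 29 from miR-379 to miR-410 held 4 calls with a median of 0.78.

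**Figure D2:**
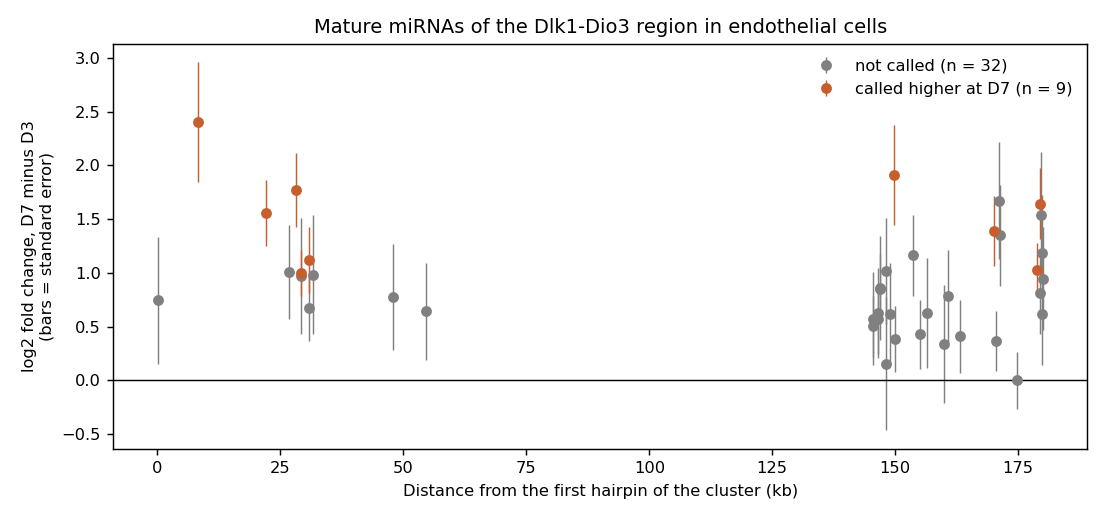
Log2 fold change, D7 minus D3, in ECs against the distance in kb from the first hairpin, for the 41 tested miRNAs placed in the Dlk1-Dio3 region by RefSeq position. Bars are standard errors and orange points the 9 that were called higher; 40 of the 41 points lie above 0.

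Fibroblast markers moved with the Dlk1-Dio3 miRNAs. All 5 members of the fibroblast list (both arms of miR-199a and miR-199b, and miR-214-3p) were detected and had positive log2 fold changes of 0.13 to 0.65, with a median of 0.47 and 0 called. miR-199a-3p and miR-199b-3p have the same mature sequence and were listed with the same counts. The count of 5, the median, the sum and the calls of this list therefore use these reads 2 times. The sum of the list was 12044, 10801, 9185 and 7455 CPM at D3 and 16407, 15998, 16632 and 10977 CPM at D7, so that the lowest D7 library lay below the highest D3 library. The same list had 2 calls higher when scaled by library size alone, and 2 in the test of the 8 libraries alone, where 9.26% and 11.4% of all miRNAs were called higher. FBs held more of the Dlk1-Dio3 miRNAs than ECs, by a median factor of 7.63 at D3 and 4.15 at D7. The part of fibroblast RNA in the rise of the Dlk1-Dio3 miRNAs was not tested.

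The other rises were miR-224-5p, miR-125b-5p and miR-122-5p with its antisense partner miR-122b-3p. miR-224-5p had the smallest adjusted p of the comparison:
miR-224-5p: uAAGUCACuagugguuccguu
It is cut from a hairpin in an intron of Gabre, a subunit gene of GABA-A receptors (chrX:72261031-72261112, minus strand). It was at 40, 28.3, 29 and 28.5 CPM in the D3 libraries and at 72.5, 79.5, 96.8 and 88.9 CPM in the D7 libraries. The D7 libraries were all higher, D3 replicate 1 stood above the other D3 libraries, and the log2 fold change was 1.42 ± 0.22 (SE, adjusted p = 0.00024, edgeR). It was called without any one of the 8 libraries, with log2 fold changes of 1.37 to 1.56.

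miR-125b-5p, a miRNA with broad expression in mesenchymal cells, rose from 1439, 1405, 1132 and 1291 CPM at D3 to 2143, 2241, 3023 and 3308 CPM at D7. The groups did not overlap, and its log2 fold change was 1.02 ± 0.29 (SE, adjusted p = 0.025, edgeR). It is transcribed from 2 loci, on chromosomes 9 and 16. Its seed CCCUGAG is shared with miR-125a-5p and miR-351-5p, which also had positive log2 fold changes but were not called. miR-125a-5p was at 4016 to 4923 CPM at D3 and at 5896 to 8543 CPM at D7, with 0.61 ± 0.29 (adjusted p = 0.24, edgeR). In the list of miR-10, miR-99, miR-100 and miR-125, miR-125b-5p was the single call of 7 tested, with a median of 0.10.

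miR-122-5p, the main miRNA of hepatocytes, was at 235, 102, 205 and 135 CPM at D3 and at 190, 487, 677 and 457 CPM at D7. The days overlapped through D7 replicate 1, and the log2 fold change was 1.43 ± 0.38 (SE, adjusted p = 0.018, edgeR, exact permutation p = 0.0857). miR-122b-3p is listed from the opposite strand of the same hairpin and was at 231, 100, 203 and 133 CPM at D3 and at 189, 483, 672 and 450 CPM at D7, so its reads cannot be told from those of miR-122-5p. The other 3 tested members of the liver and gut list were not called.

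Both miRNAs of the miR-7 pair fell. The pair is known for high expression in neuroendocrine cells and for the repression of the EGF receptor. miR-7a-5p was at 1419, 1285, 1121 and 1172 CPM in the D3 libraries and at 463, 425, 483 and 256 CPM in the D7 libraries. miR-7b-5p was at 1266, 1168, 977 and 1055 CPM at D3 and at 386, 375, 428 and 226 CPM at D7. For both, every D7 library lay below every D3 library. The log2 fold changes were −1.62 ± 0.30 and −1.66 ± 0.29 (SE, adjusted p = 0.00099 and 0.00096, edgeR), and both were called without any one of the 8 libraries.

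miR-7a-5p comes from Mir7-1, in an intron of Hnrnpk (chr13:58392779-58392886, minus strand), and from Mir7-2 (chr7:78888277-78888373), while miR-7b-5p comes from Mir7b (chr17:56242988-56243098). The ratio of miR-7a-5p to miR-7b-5p stayed between 1.10 and 1.20 in the 8 libraries. Since the mature sequences differ by A10U and the last base, how a read with 1 mismatch was assigned bears on this ratio, and the 2 measurements may not be independent of each other. Their fall between D3 and D7 followed a rise: at D0 the means were 276 CPM for miR-7a-5p and 246 CPM for miR-7b-5p.

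The miR-30 family, abundant in ECs and CMs, fell in part. Of 7 tested members 3 were called lower, miR-30e-5p, miR-30a-5p and miR-30d-5p, with a median of −0.68 for the family. miR-30e-5p was at 29691, 39890, 36289 and 43971 CPM at D3 and at 22000, 14033, 17395 and 17191 CPM at D7, without overlap (log2 fold change −1.09 ± 0.25 SE, adjusted p = 0.0067, edgeR). miR-30a-5p was at 44409, 56128, 52697 and 63572 CPM at D3 and at 35789, 24400, 29366 and 30641 CPM at D7 (−0.85 ± 0.21, adjusted p = 0.011, edgeR). miR-30d-5p was at 39674 to 56295 CPM at D3 and at 22656 to 31256 CPM at D7 (−0.80 ± 0.21, adjusted p = 0.013, edgeR). In all 3, D3 replicate 1 was the lowest D3 library and D7 replicate 1 the highest D7 library.

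The other 4 members were not called. miR-30b-5p was at 2108 to 2708 CPM at D3 and at 1240 to 1965 CPM at D7, without overlap but also without a call (−0.68 ± 0.32, adjusted p = 0.23, edgeR). miR-30c-5p, with the same seed, was at 7353 to 8833 CPM at D3 and at 7713 to 9889 CPM at D7 (0.11 ± 0.25). The 3p arms were not called, with miR-30a-3p at −0.14 ± 0.24 and miR-30e-3p at −0.24 ± 0.24. The ratio of the 5p to the 3p arm was not called for miR-30a, miR-30e or miR-30d (adjusted p = 0.28, 0.19 and 0.75, limma). miR-30e and miR-30c-1 lie close together in an intron of Nfyc (hairpins chr4:120772606-120772697 and chr4:120769534-120769622, minus strand).

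The calls of miR-30a-5p and miR-30d-5p did not hold when scaled by library size alone, where the log2 fold changes were −0.52 (adjusted p = 0.062, edgeR) and −0.47 (adjusted p = 0.086, edgeR), while miR-30e-5p was called at −0.76 (adjusted p = 0.023, edgeR). Most CM markers had the same sign as the family: 6 of 7 were tested, 5 with a negative log2 fold change and 0 called, and the 7th, miR-208b-3p, had 0 to 14 counts in a library. Their sums, given above, did not overlap between days, but were mostly miR-1a-3p, the only tested marker without overlap. The other tested markers overlapped, such as miR-499-5p at 179 to 440 CPM at D3 and at 129 to 355 CPM at D7. miR-1a-3p, the main miRNA of striated muscle, was at 174261, 92295, 91060 and 85475 CPM at D3 and at 75422, 28746, 50992 and 60430 CPM at D7 (−1.04 ± 0.38, adjusted p = 0.11, edgeR). D3 replicate 1, the library with the most miR-1a-3p, held the least miR-30a-5p, miR-30d-5p and miR-30e-5p of the D3 libraries. Between the days the sum of the CM markers and the called miR-30 miRNAs were both lower at D7. The part of cardiomyocyte RNA in the fall of the family was not tested.

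**Figure D3:**
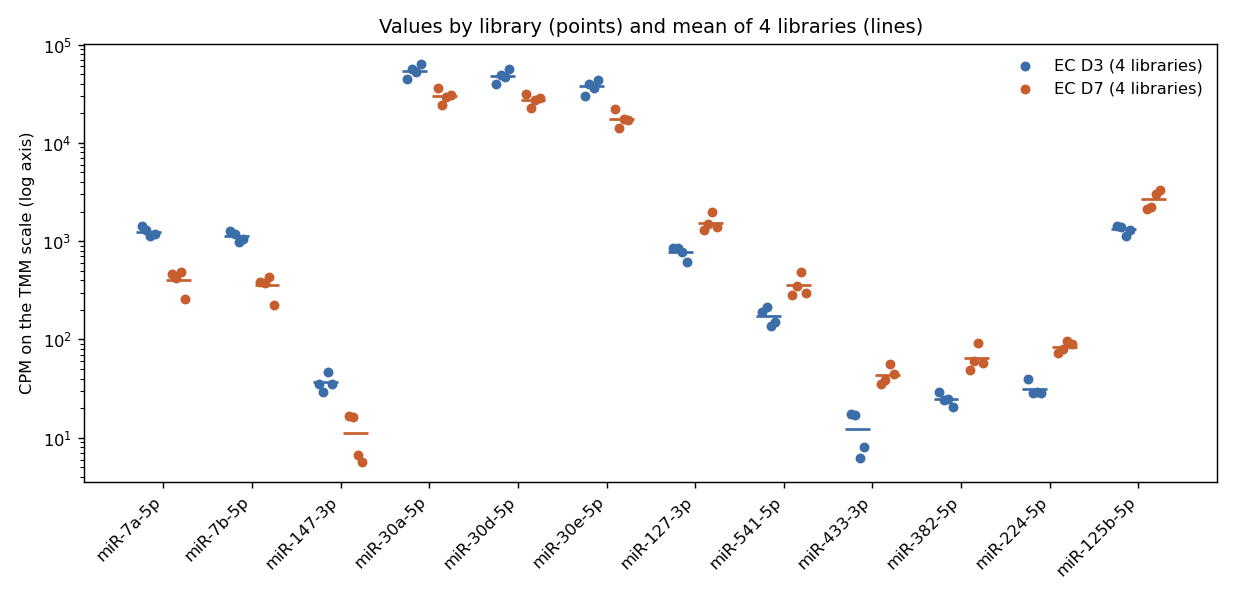
Levels of 12 miRNAs in each of the 8 libraries, as CPM on the TMM scale with a log axis; points are libraries and lines are the means of 4. For each of the 12 the D3 (blue) and D7 (orange) libraries do not overlap.

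Both arms of miR-147, a miRNA induced in macrophages by Toll-like receptor signalling, fell. Its hairpin overlaps an exon of AA467197 (chr2:122640803-122640881). The 5p arm is:
miR-147-5p: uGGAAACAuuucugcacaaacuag
miR-147-3p was at 35.1, 29.5, 47 and 35.2 CPM in the D3 libraries and at 16.7, 16.1, 6.67 and 5.68 CPM in the D7 libraries. The D7 libraries were all lower and fell into a pair of higher and a pair of lower values, with a log2 fold change of −1.66 ± 0.42 (SE, adjusted p = 0.012, edgeR). miR-147-5p was at 34.7, 29.6, 35.2 and 28 CPM at D3 and at 15.7, 14.3, 3.72 and 5.98 CPM at D7 (−1.64 ± 0.40, adjusted p = 0.0097, edgeR). Both arms were near 1 CPM or less at D0, with means of 1.02 and 0.54 CPM.

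Other miRNAs linked to inflammation were not called. miR-155-5p, an activator of macrophage and lymphocyte responses, was at 108 to 154 CPM at D3 and at 66.4 to 87.6 CPM at D7 (−0.70 ± 0.23, adjusted p = 0.06, edgeR). miR-146a-5p, a brake on NF-κB signalling, had a log2 fold change of −0.07 ± 0.20 and miR-146b-5p of 0.04 ± 0.21. miR-21a-5p was at 11798 to 13599 CPM at D3 and at 5562 to 12763 CPM at D7 (−0.49 ± 0.42, adjusted p = 0.53, edgeR), and D7 replicate 1 lay within the D3 range. The sum of the 5 leukocyte markers was 2388 to 3126 CPM at D3 and 2046 to 2770 CPM at D7, and 0 were called. It was mostly miR-150-5p, a miRNA of mature lymphocytes, which on the scale of all 96 libraries had a D3 mean of 1919 CPM in ECs and 959 CPM in HCs. miR-342-3p was also higher in ECs, at 318 against 184 CPM, while miR-142a-3p was at 17.2 CPM in ECs and 5054 CPM in HCs. miR-223-3p, the main miRNA of neutrophils, was at 1.24 to 5.71 CPM at D3 and at 0.76 to 5.50 CPM at D7, and none of the 5 markers was at 0 in a library.

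miRNAs of the miR-17-92 cluster and its paralogs, which promote proliferation and cell survival, had negative log2 fold changes in most cases, but 1 of 14 tested was called. miR-19a-3p shares its seed with miR-19b-3p and differs from it by 1 base, so the assignment of reads with 1 mismatch bears on both:
miR-19a-3p: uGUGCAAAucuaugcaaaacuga
miR-19b-3p: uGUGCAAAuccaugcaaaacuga
miR-19a-3p was at 194, 256, 198 and 288 CPM at D3 and at 137, 110, 90.3 and 90.7 CPM at D7, without overlap (−1.13 ± 0.35 SE, adjusted p = 0.047, edgeR). It was called in 1 of the 8 tests that left out a library and not when scaled by library size alone (adjusted p = 0.11, edgeR). miR-18a-5p was at 17.3 to 21.9 CPM at D3 and at 5.68 to 10.1 CPM at D7, with an adjusted p just above the threshold (−1.21 ± 0.38, adjusted p = 0.051, edgeR). For the 14 the median log2 fold change was −0.72, 12 were below 0, and 8 were lower at an unadjusted p under 0.05, against 85 of all 421 in either direction. Scaled by library size alone, the median was −0.38 and none was called. In the test of the 8 D3 and D7 libraries alone, 6 were called lower and 0 higher, where 10% of all miRNAs were called lower and 11.4% higher. The days did not overlap for 7 that were lower and 1 that was higher, against 12.8% and 9.74% of all miRNAs. The number of calls in this list therefore depended on which libraries set the spread.

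Growth-arrest families gave few calls. In the miR-15/16 family 0 of 7 were called, and miR-16-5p was at 1304 to 2287 CPM at D3 and at 821 to 1027 CPM at D7 (−0.95 ± 0.32, adjusted p = 0.062, edgeR). In the X-linked cluster of miR-322 and miR-503 1 of 10 was called: miR-542-3p was at 154, 179, 154 and 187 CPM at D3 and at 119, 80.2, 84.5 and 66.7 CPM at D7 (−0.94 ± 0.27 SE, adjusted p = 0.029, edgeR). Its groups did not overlap, yet it was called in 2 of the 8 tests without a library. In the p53-responsive miR-34 family 0 of 5 were called, and miR-34c-5p was at 251 to 370 CPM at D3 and at 95.4 to 200 CPM at D7 (−0.74 ± 0.36, adjusted p = 0.24, edgeR). With the 8 D3 and D7 libraries alone, 2 of the miR-15/16 family, 2 of the X-linked cluster and 1 of the miR-34 family were called lower. In the X-linked cluster 1 was called higher, and of all miRNAs 10% were lower and 11.4% higher.

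Among the remaining falls, miR-145a-5p, the main miRNA of contractile smooth muscle, was at 3007, 3742, 4042 and 3921 CPM at D3 and at 1859, 1970, 1358 and 1730 CPM at D7 (−1.09 ± 0.28 SE, adjusted p = 0.015, edgeR). It is 1 of 4 mural cell markers, whose sum was 45080 to 69530 CPM at D3 and 29238 to 43971 CPM at D7, without overlap. The other 3 were not called, and miR-143-3p, its neighbour in one transcript, was at 40760 to 64963 CPM at D3 and at 27072 to 41979 CPM at D7 (−0.59 ± 0.34, adjusted p = 0.31, edgeR). The part of mural cell RNA in this fall was not tested.

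miR-451a, the miRNA of red blood cells, was at 968, 567, 240 and 668 CPM at D3 and at 80, 202, 324 and 131 CPM at D7. The days overlapped through D3 replicate 3 and D7 replicate 3 (−1.73 ± 0.49 SE, adjusted p = 0.026, edgeR, exact permutation p = 0.0571). miR-486a-5p, which is also abundant in red blood cells, was at 546 to 1486 CPM at D3 and at 694 to 1407 CPM at D7 (0.10 ± 0.34). All 4 erythroid markers were detected, their sum was 800 to 2534 CPM at D3 and 787 to 1763 CPM at D7, and miR-451a was the single call. The part of blood carried over in the fall of miR-451a was not tested.

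miR-29c-5p, miR-350-3p, miR-130a-5p and miR-6539 make up the rest of the calls. miR-350-3p, cut from an intron of Cep170, was at 69.6, 102, 101 and 87.2 CPM at D3 and at 60.7, 50.8, 39.2 and 38.6 CPM at D7 (−0.92 ± 0.29, adjusted p = 0.048, edgeR). miR-29c-5p, the minor arm of an antifibrotic miRNA, was at 13.5 to 17.3 CPM at D3 and at 3.89 to 10.2 CPM at D7 (−1.28 ± 0.35), while the other 4 tested members of the miR-29 family were not called. miR-130a-5p was at 3.12 to 9.27 CPM at D3 and at 0 to 2.28 CPM at D7. miR-6539 had counts of 22, 138, 12 and 29 in the D3 libraries and of 1, 17, 6 and 0 in the D7 libraries, so both rest on few reads.

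Several families central to endothelium did not pass the test. Both arms of miR-126a were negative without a call, with −0.23 ± 0.17 (adjusted p = 0.46, edgeR) for miR-126a-3p, whose libraries overlapped between days. Of 15 miRNAs listed for vessel growth 0 were called, with a median of −0.26 on the TMM scale and 0.09 when scaled by library size alone, so their common direction turned with the scaling. Of 9 let-7 miRNAs 0 were called, with a median of 0.04. The most abundant of them were let-7a-5p at −0.21 ± 0.20 and let-7f-5p at −0.29 ± 0.21. The hypoxia-induced miR-210-3p was at 47.5 to 60.2 CPM at D3 and at 36.8 to 52 CPM at D7 (−0.26 ± 0.24). Lists of miR-181 (6 tested), miR-23/27/24 (11), miR-26 (2), miR-148 and miR-152 (3), miR-221 and miR-222 (3) and miR-200 (5) also held 0 calls. These counts depended on the libraries that set the spread. In the test of the 8 D3 and D7 libraries alone, 1 of 2 miR-126a arms and 3 of 15 for vessel growth were called lower. So were 1 of 2 for miR-26 and 1 of 3 for miR-148 and miR-152, and 1 of 9 let-7 miRNAs was higher. Of all miRNAs, 10% were called lower and 11.4% higher there.

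The time course places these changes between the other days. Of the 15 miRNAs called lower, 11 had their highest day mean at D3, 3 at D1 and 1 at D0. Of the 13 called higher, 8 had their highest mean at D7 and 5 at D28, and 8 had their lowest mean at D0. The calls were chosen by their D3 and D7 values, so these counts are partly fixed by that choice and serve as description only. The comparison of D3 with D0 called 74 of 421 miRNAs (17.6%), 65 of them higher (15.4%) and 9 lower (2.14%) at D3, and that of D14 with D7 called 9 (2.14%), all lower at D14. These comparisons share libraries with that of D7 and D3, so their values stand side by side.

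miR-7a-5p was higher at D3 than at D0 by a log2 fold change of 2.18 (adjusted p = 3.9e-06, edgeR) and had a D14 mean of 340 CPM, close to its D7 mean of 407 CPM. miR-147-3p was higher at D3 than at D0 by 5.11 (adjusted p = 6.7e-08, edgeR) and was at 3.90 CPM at D14. The miR-30 family had another course: miR-30a-5p was at a mean of 52569 CPM at D0 and 58493 CPM at D1, within the range of its D3 libraries, and at 36326 CPM at D14 and 27948 CPM at D28. miR-127-3p had means of 379, 403, 770, 1541, 866 and 1271 CPM over the 6 days, with a call between D0 and D3 (1.02, adjusted p = 0.0011, edgeR) and between D7 and D14 (−0.83, adjusted p = 0.038, edgeR). miR-433-3p was not called at either of these steps (adjusted p = 0.14 and 0.57, edgeR). miR-224-5p had means of 27.4, 28.1 and 31.4 CPM at D0, D1 and D3, and of 84.4, 71.9 and 108 CPM at D7, D14 and D28.

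**Figure D4:**
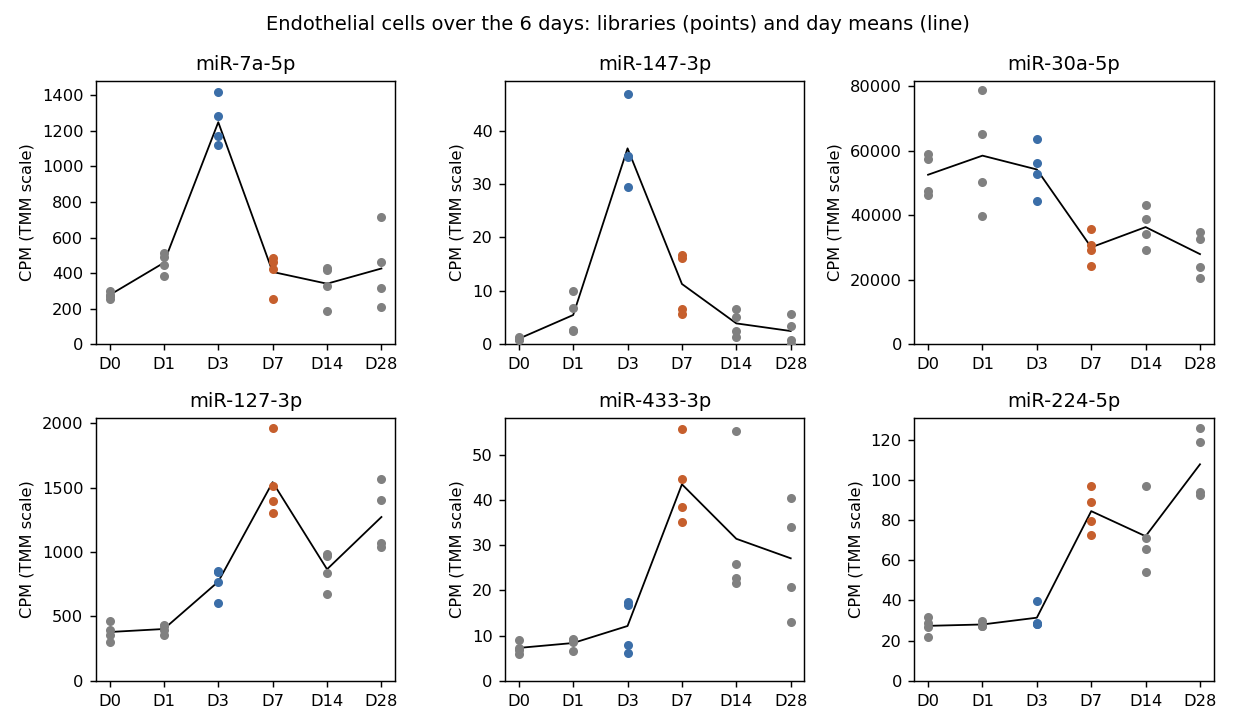
CPM on the TMM scale of 6 miRNAs in ECs at the 6 days; points are libraries, the line joins day means, and D3 is blue and D7 orange. miR-7a-5p and miR-147-3p have their highest mean at D3 (1249 and 36.7 CPM), and miR-127-3p and miR-433-3p at D7 (1541 and 43.5 CPM).

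The ratio of the 5p to the 3p arm was tested for 104 hairpins with limma, a scale-free measure of which strand is kept. 0 hairpins were called, and 12 had an unadjusted p under 0.05. The smallest p values were those of miR-342, miR-503 and miR-329. For miR-342 the log2 ratio of arms was −5.16, −6.00, −5.81 and −6.36 at D3 and −5.03, −4.19, −3.19 and −3.87 at D7, a difference of 1.76 ± 0.52 (SE, adjusted p = 0.16, limma). For miR-503 the log2 ratio was 2.14 to 2.98 at D3 and 1.18 to 2.02 at D7, with −1.04 ± 0.32 (adjusted p = 0.16, limma). In the test of the 8 libraries alone 17 hairpins were called, 7 with a higher and 10 with a lower ratio at D7.

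The change from D3 to D7 in ECs was tested against that in each other cell type, on all 96 libraries and 712 miRNAs. The pools of the cell types on a given day came from the same mice, and the fit treated them as independent. In this fit the EC changes were higher by a median of 0.22 than in the fit of ECs alone, so they are given as fitted. The change in ECs differed from that in FBs for 35 miRNAs (4.92%), 29 with a higher (4.07%) and 6 with a lower value in ECs (0.843%). It differed from that in HCs for 15 (2.11%), 2 with a higher (0.281%) and 13 with a lower value in ECs (1.83%). It differed from that in CMs for 26 (3.65%), 19 with a higher (2.67%) and 7 with a lower value in ECs (0.983%).

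Against FBs, 5 of the 8 listed Dlk1-Dio3 miRNAs called in ECs differed. miR-433-3p changed by 1.96 ± 0.32 in ECs and by 0.30 ± 0.30 in FBs, a difference of 1.66 ± 0.43 (adjusted p = 0.012, edgeR). miR-337-5p and miR-409-5p had differences of 1.65 ± 0.37 and 1.78 ± 0.43 (adjusted p = 0.004 and 0.0053, edgeR). In FBs these miRNAs were more abundant on both days: miR-337-5p had means of 348 and 376 CPM there, against 22.2 and 76.9 CPM in ECs. For miR-127-3p no difference was called, with 1.23 ± 0.25 in ECs and 0.88 ± 0.25 in FBs. miR-125b-5p changed by 1.24 ± 0.25 in ECs and by −0.20 ± 0.24 in FBs, a difference of 1.44 ± 0.35 (adjusted p = 0.0053, edgeR). Fibroblast marker miR-199a-3p also differed, with 0.87 ± 0.29 in ECs and −0.51 ± 0.29 in FBs (difference 1.38 ± 0.41, adjusted p = 0.035, edgeR).

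Of 18 miRNAs of the miR-17-92 list tested in this fit, 6 had a higher change in ECs than in FBs. miR-20a-5p changed by −2.93 ± 0.44 in FBs, from a mean of 1432 to 188 CPM, and by −0.70 ± 0.41 in ECs, from 1037 to 637 CPM, a difference of 2.23 ± 0.59 (adjusted p = 0.013, edgeR). miR-17-5p, miR-106a-5p and miR-93-5p had differences of 2.19, 2.11 and 1.85, also called. In the opposite direction, miR-147-3p (−1.74 ± 0.53, adjusted p = 0.035, edgeR) and miR-542-3p (−1.41 ± 0.41, adjusted p = 0.034, edgeR) fell in ECs relative to FBs. No difference was called for the miR-7 pair, with −1.39 ± 0.26 in ECs and −1.50 ± 0.26 in FBs for miR-7a-5p (difference 0.10 ± 0.36, adjusted p = 0.96, edgeR). miR-7a-5p also fell in HCs (−0.77 ± 0.26, adjusted p = 0.025, edgeR) and CMs (−0.83 ± 0.26, adjusted p = 0.026, edgeR), and neither difference from ECs was called. miR-224-5p rose by 1.64 ± 0.30 in ECs, 1.30 ± 0.29 in FBs (adjusted p = 0.00083, edgeR) and 1.67 ± 0.32 in HCs (adjusted p = 3.1e-05, edgeR). In CMs miR-224-5p changed by 0.32 ± 0.34 without a call, and none of its differences from ECs was called.

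Against HCs, 3 of 7 members of the miR-30 family had a lower change in ECs. miR-30a-5p changed by −0.62 ± 0.22 in ECs and by 0.82 ± 0.22 in HCs, where it went from 7074 to 12463 CPM as a mean, a difference of −1.44 ± 0.31 (adjusted p = 0.0033, edgeR). miR-30d-5p and miR-30e-5p had differences of −1.44 ± 0.31 and −1.47 ± 0.35 (adjusted p = 0.0033 and 0.0084, edgeR). miR-155-5p (−1.44 ± 0.39) and miR-146a-5p (−1.20 ± 0.28) also had lower values in ECs, and both rose in HCs. The Dlk1-Dio3 miRNAs rose in HCs as well: of 51 tested in this fit 39 were called higher in HCs. Of all 712 miRNAs, 136 were called in HCs (19.1%), 124 higher (17.4%) and 12 lower (1.69%). The median of the list was 1.69 in HCs, 0.95 in ECs, 0.72 in CMs and 0.27 in FBs. Levels in HCs were low, such as 1.63 CPM for miR-433-3p at D3. Of the 51, 13 were called higher in CMs and 8 in FBs, and 1 was called lower in each. None of the 8 listed Dlk1-Dio3 miRNAs called in ECs differed from HCs, while 2 other members of the list had a lower change in ECs than in HCs.

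Against CMs, 2 of the miRNAs called in ECs differed, miR-337-5p (1.32 ± 0.38, adjusted p = 0.033, edgeR) and miR-673-5p (2.57 ± 0.75, adjusted p = 0.033, edgeR). miR-29b-3p changed by 3.31 ± 0.56 in CMs, from a mean of 322 to 3202 CPM, and by −0.31 ± 0.52 in ECs, a difference of −3.62 ± 0.75 (adjusted p = 0.0042, edgeR). The number of calls in these comparisons depended on single EC libraries of D3 and D7: the calls against FBs ranged from 18 to 42, against HCs from 4 to 11 and against CMs from 13 to 33 when each was left out. Against FBs they were 20 without D3 replicate 3, 18 without D3 replicate 4 and 21 without D7 replicate 2. Against HCs they were 8 without D3 replicate 1, 5 without D3 replicate 2 and 4 without D7 replicate 3. Against CMs they were 16, 17 and 15 without D3 replicates 2, 3 and 4, and 13 without either D7 replicate 2 or D7 replicate 3.

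**Figure D5:**
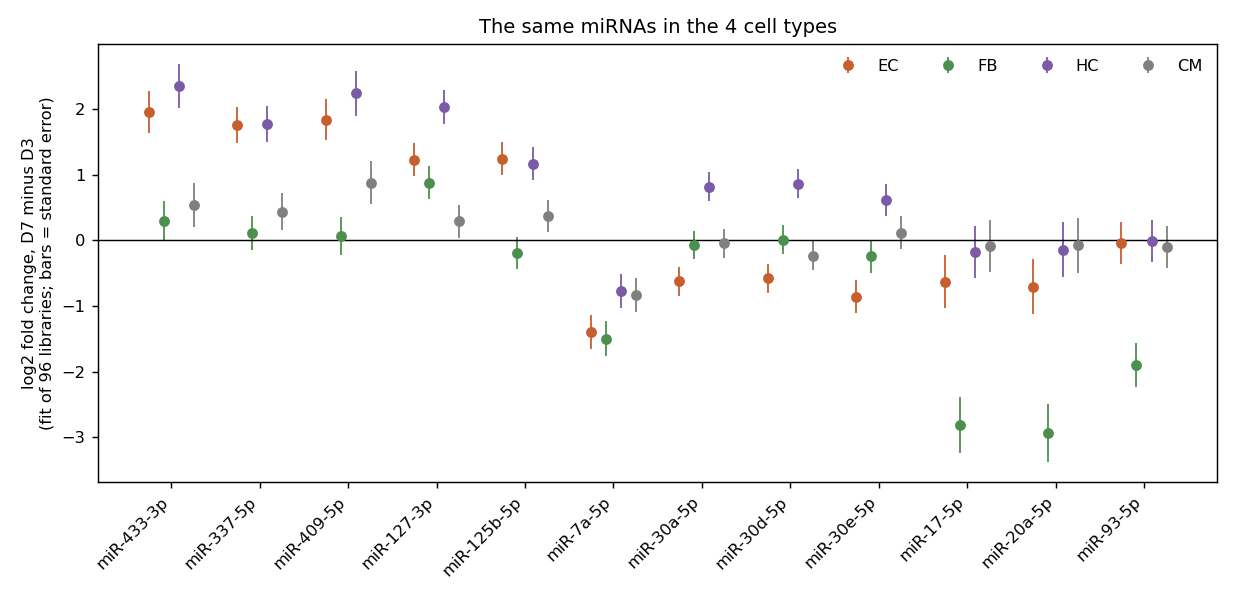
Log2 fold change, D7 minus D3, of 12 miRNAs in ECs, FBs, HCs and CMs, from the fit of all 96 libraries; bars are standard errors. miR-433-3p rose in ECs (1.96) and HCs (2.35) but had 0.30 in FBs, miR-30a-5p had −0.62 in ECs against 0.82 in HCs, and miR-20a-5p had −2.93 in FBs against −0.70 in ECs.

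Base composition moved with the direction of change. The median GC content was 50% for the 11 higher miRNAs with a RefSeq sequence, 37.5% for the 11 lower ones and 47.8% for the 333 that were not called. Over 355 miRNAs, Spearman's rho between GC content and log2 fold change was 0.32, a description across miRNAs that share libraries. The unmatched share of reads also differed between days, as given above, and the part of library composition in these differences was not tested.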

How the data were processed

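Small RNA of ECs was measured in 24 libraries, of which the 4 at D3 and the 4 at D7 were compared. Per the labels and methods, the authors trimmed adaptors with Trim Galore, removed reads under 18 nt and ran the nf-core small RNA pipeline against miRBase. SAMtools and Bowtie2 are named in the submitters' processing notes, with the build mm10. The deposited values are counts of reads per mature miRNA, not normalized. How reads with several matches were counted is not given in the sources used here, and 77 miRNAs, in 32 sets, had counts identical to those of another. None of the 28 called miRNAs was among them. The line of unmatched reads was left out of library sizes and tests, and hairpin counts were not used, since the comparison is of mature miRNAs.

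Replicate numbers came from the titles. The sources call the 4 libraries of a group both biological and technical replicates, so p-values measure the spread between these pools. The RNA isolation groups of the study are not in the labels used here, so no batch was fitted. edgeR 4.0.16 in R 4.3.3 was run with TMM factors, filterByExpr and the quasi-likelihood test on all EC libraries, so that the 6 days shared one estimate of the spread, and on all 96 libraries for differences between cell types. The study removed 1 small RNA library each of ECs at D28, HCs at D0 and FBs at D0 as outliers without naming them. All were kept, including 1 HC library of D0 with a total count of 18286. Adjusted p values are Benjamini-Hochberg values over all miRNAs tested, with a threshold of 0.05. SE is the log2 fold change divided by the square root of F. Arm ratios were tested with limma 3.58.1, with 0.5 added to each arm and a mean of at least 10 counts per arm. The scripts were tested on simulated data. Positions came from GENCODE and RefSeq for GRCm38.

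The members and the 25 lists were chosen with earlier results of these data known. Named miRNAs were the 10 largest called rises and falls with a mean of at least 100 CPM, the 5 most abundant, members of the lists, the 3 leading arm ratios and the 3 largest differences from each cell type. The remaining calls were named after their values were seen. Alternatives were DESeq2 1.42.0, scaling by library size alone, testing without a count filter, the D3 and D7 libraries alone, the replicate number as a block, and each library left out. Leaving out libraries in the comparisons of cell types, leaving out D28 libraries and the block within days were chosen after seeing the data. Total counts set the precision: miRNAs with few counts in a library have wide counting error.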

Additional observations from a re-analysis of the deposited data

Results flagged for a closer look

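In 64 groups of 4 libraries (32 miRNAs at D3 and at D7), the distance of the highest or lowest library was set against Dixon's 95% critical value for 4 samples, which chance passes in about 1 of 20 groups. D3 replicate 1 stood apart for miR-224-5p, at 39.96 CPM against 28.3 to 29 CPM in the other D3 libraries. The same library stood apart for miR-1a-3p, at 174261 CPM against 85475 to 92295 CPM. No other group passed, so the share that passed was below the share that chance gives.

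The change from D3 to D7 differed between ECs and FBs for 11 miRNAs that were called in ECs (edgeR interaction test on 96 libraries). Their differences in log2 fold change, ECs minus FBs, were 1.66 for miR-433-3p, 1.65 for miR-337-5p, 1.78 for miR-409-5p, 2.00 for miR-673-5p, 2.20 for miR-329-5p, 1.29 for miR-434-3p, 1.44 for miR-125b-5p, 1.56 for both miR-122-5p and miR-122b-3p, −1.74 for miR-147-3p and −1.41 for miR-542-3p. Against HCs the differences were −1.47 for miR-30e-5p, −1.44 for miR-30a-5p and −1.44 for miR-30d-5p. Against CMs they were 1.32 for miR-337-5p and 2.57 for miR-673-5p.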

How the results depend on the processing

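Of the 28 miRNAs called, 12 were called in all 13 alternatives set at the start, and the 28 kept their direction in each. Calls numbered 45 (39 higher, 6 lower) when scaled by library size alone and 90 (48 higher, 42 lower) with the D3 and D7 libraries alone; 20 were higher with no filter on low counts, and 22 with DESeq2. Without each library in turn, D28 included, they numbered 15 to 43 (8 to 19 higher, 6 to 25 lower). The lower calls were 7 without D3 replicate 4, D7 replicate 2 or D7 replicate 3, and 6 without D7 replicate 4, 25 without D28 replicate 3, and the higher calls were 8 without D3 replicate 4. The replicate block gave 28 calls, 27 of them shared. Same-numbered D3 and D7 libraries deviated together with r of −0.24, 0.10, −0.32 and 0.08, and 0 of 4 correlated best with its own number. No pairing by number was seen, though 4 pairs are too few to exclude an effect shared by number.

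Differences from FBs numbered 64 (62 higher, 2 lower) with library size only, 67 (37 lower) with the 16 libraries alone and 18 to 42 (16 to 32 higher, 2 to 12 lower) without each library left out. Those from HCs numbered 8 (5 higher, 3 lower) with library size only, 7 higher with 16 libraries, and 4 to 17 (0 to 3 higher, 3 to 15 lower) without each library left out. Those from CMs were 9 higher and 14 lower with library size only, 15 lower with 16 libraries, and 13 to 36 (8 to 25 higher, 4 to 16 lower) without each library left out. The libraries left out were those of ECs at D3, D7 and D28, and of HCs and FBs at D0. A replicate block within each day, over the 4 cell types, gave 28 differences from FBs (2 lower), 9 from HCs (1 higher, 8 lower) and 24 from CMs. Same-numbered libraries deviated together with r over 0.1 in 13 of 24 pairs with ECs, with r from −0.32 to 0.48. Differently numbered libraries were not compared, so these values cannot tell whether a number marks shared mice. Arm ratios called numbered 3 (2 higher, 1 lower) at a mean of at least 50 counts and 17 (7 higher, 10 lower) with the 8 libraries alone. The cause of these shifts was not tested.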
